A study of Caenorhabditis elegans with 139 samples.

Results

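Single embryos of the nematode Caenorhabditis elegans from the period of elongation were compared with embryos from the period of gastrulation. The elongation window holds 10 embryos frozen 300 to 390 min after the 4-cell stage, and the gastrulation window holds 9 embryos frozen at 110 to 190 min, with 1 embryo every 10 min in each. The labels give the times only, and the names of the windows follow from them. They are 19 of the 139 embryos of a developmental time course, and were chosen by labelled time and by the number of the embryo, so that all 19 lie in the ascending run of numbers 95 to 139. The study measured the RNA of each whole embryo with CEL-Seq, which counts reads from the 3′ ends of transcripts, and 1 library stands for 1 embryo. The labels name no strain, mutation or treatment for either window. All embryos were cut out of adults, washed in bleach solution, collected at the 4-cell stage and kept at 20°C until freezing. Within the run the number of the embryo increased with the labelled time, so processing order and age cannot be told apart, and the labels name no batch.

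Gastrulation in this animal moves the gut, muscle and germline precursors from the surface to the inside while most cells are still dividing. Later the epidermis spreads over the ventral side, cell division largely ends, and the embryo lengthens as actin and myosin in the epidermis squeeze it and the body wall muscle begins to pull through attachments in the epidermis. The epidermis meanwhile secretes a temporary apical matrix and then the collagens of the first larval cuticle, and neurons grow axons and cilia.

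The 10 elongation libraries held 12338 to 2758725 gene counts (median 1934798), and the 9 gastrulation libraries held 513094 to 1996361 (median 1264572). The elongation embryo labelled 380 min, number 135, stood apart: it had 12338 gene counts in 2668 genes, only 34.7% of its reads fell in genes, and 1 count in it corresponds to 81.1 CPM (counts per 1000000 gene counts). Its correlation with the other 9 elongation embryos averaged 0.557 on log2(CPM + 10), against 0.295 with the gastrulation embryos. It stayed in every test, counts that moved by more than 2 genes without it are given both ways, and per-embryo values below are those of the other 9 elongation embryos, which held at least 814212 gene counts. Pairs among these 9 correlated at 0.789 to 0.974 (median 0.925), pairs among the gastrulation embryos at 0.800 to 0.973 (median 0.938), and pairs across the windows at 0.372 to 0.827 (median 0.546). These correlations are across genes, which are not independent replicates.

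Genes of dividing cells and early lineages were high in the gastrulation window. The replication helicase subunit mcm-7 had 13.3 to 307 CPM (median 88.8) in elongation embryos, against 1770 to 2575 CPM (median 2048) in gastrulation embryos. The endoderm-specifying GATA factor end-1 had 0 to 1.23 CPM (median 0) in elongation embryos, against 9.89 to 86.7 CPM (median 48.8) in gastrulation embryos. Genes of differentiated tissues were high in the elongation window. The cuticle collagen sqt-3 had 3331 to 8454 CPM (median 5188) in elongation embryos, against 12.6 to 387 CPM (median 48.8) in gastrulation embryos, and the body wall muscle myosin heavy chain myo-3 had 81.8 to 775 CPM (median 397) in elongation embryos, against 0.842 to 18.3 CPM (median 3.93) in gastrulation embryos. In none of these 4 genes did the 9 elongation embryos overlap the gastrulation embryos. Of 22 stage markers, 9 were called higher in elongation, 6 lower, 5 were not called and 2 were not tested. Those not called included pha-4, the pharynx-specifying factor, with a log2 fold change of 0.33 ± 0.21 (adjusted p = 0.177), the gut factor elt-2 at 0.62 ± 0.32 (adjusted p = 0.0903) and the epidermal factor lin-26 at 0.58 ± 0.34 (adjusted p = 0.137). Of 10 markers of larval and late embryonic stages 4 were tested, of which dpy-7 and hch-1 rose and cht-1 fell, and with no filter 4 rose and 1 fell. Some of the others were low in both windows. The synaptotagmin gene snt-1 had 0 to 5.0 CPM (median 0.751) in elongation embryos, against 0 to 6.33 CPM (median 0) in gastrulation embryos, and the pharyngeal myosin myo-2 had 1.23 to 22.6 CPM (median 5.44) in elongation embryos, against 0 to 7.91 CPM (median 2.81) in gastrulation embryos. The cuticle collagen bli-1 had 0 to 1.15 CPM (median 0) in elongation embryos, against 0 to 0.549 CPM (median 0) in gastrulation embryos.

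A total of 7180 genes had enough counts for testing with edgeR's quasi-likelihood test, with a call made where the fold was 2 or more and the adjusted p (Benjamini-Hochberg, over all genes tested) was under 0.05. Such p-values measure the spread between embryos, including that of age within a window. In elongation embryos 1821 genes were higher (25.4% of those tested) and 1482 were lower (20.6%). Without embryo 135 the counts were 1807 and 1422 of 7138, and 3178 of the 3303 called genes kept their call. The median log2 fold change was 2.43 among the genes called higher, 759 of which changed at least 8-fold, and -1.69 among those called lower, 265 of which changed at least 8-fold. In 16 of the genes called higher the 9 gastrulation embryos held no count. The 9 deeper elongation embryos did not overlap the gastrulation embryos in 1085 genes called higher (59.6%) and 938 called lower (63.3%). Overlap was read from the same embryos as the calls, so here and below it is not separate support for them. The share over all genes tested was not counted. The low-count filter required enough counts in at least 9 of the 19 embryos, and in fewer once a gastrulation embryo was left out. With no filter, 4259 of 16467 genes were higher (25.9%) and 2815 lower (17.1%). Because whole embryos were measured, fewer cells of a type and less RNA per cell cannot be told apart in any of these values. Over all genes tested the median log2 fold change was 0.02, and scaling with relative log expression factors moved it by -0.19, with 1618 genes then called higher and 1817 lower.

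**Figure D1:**
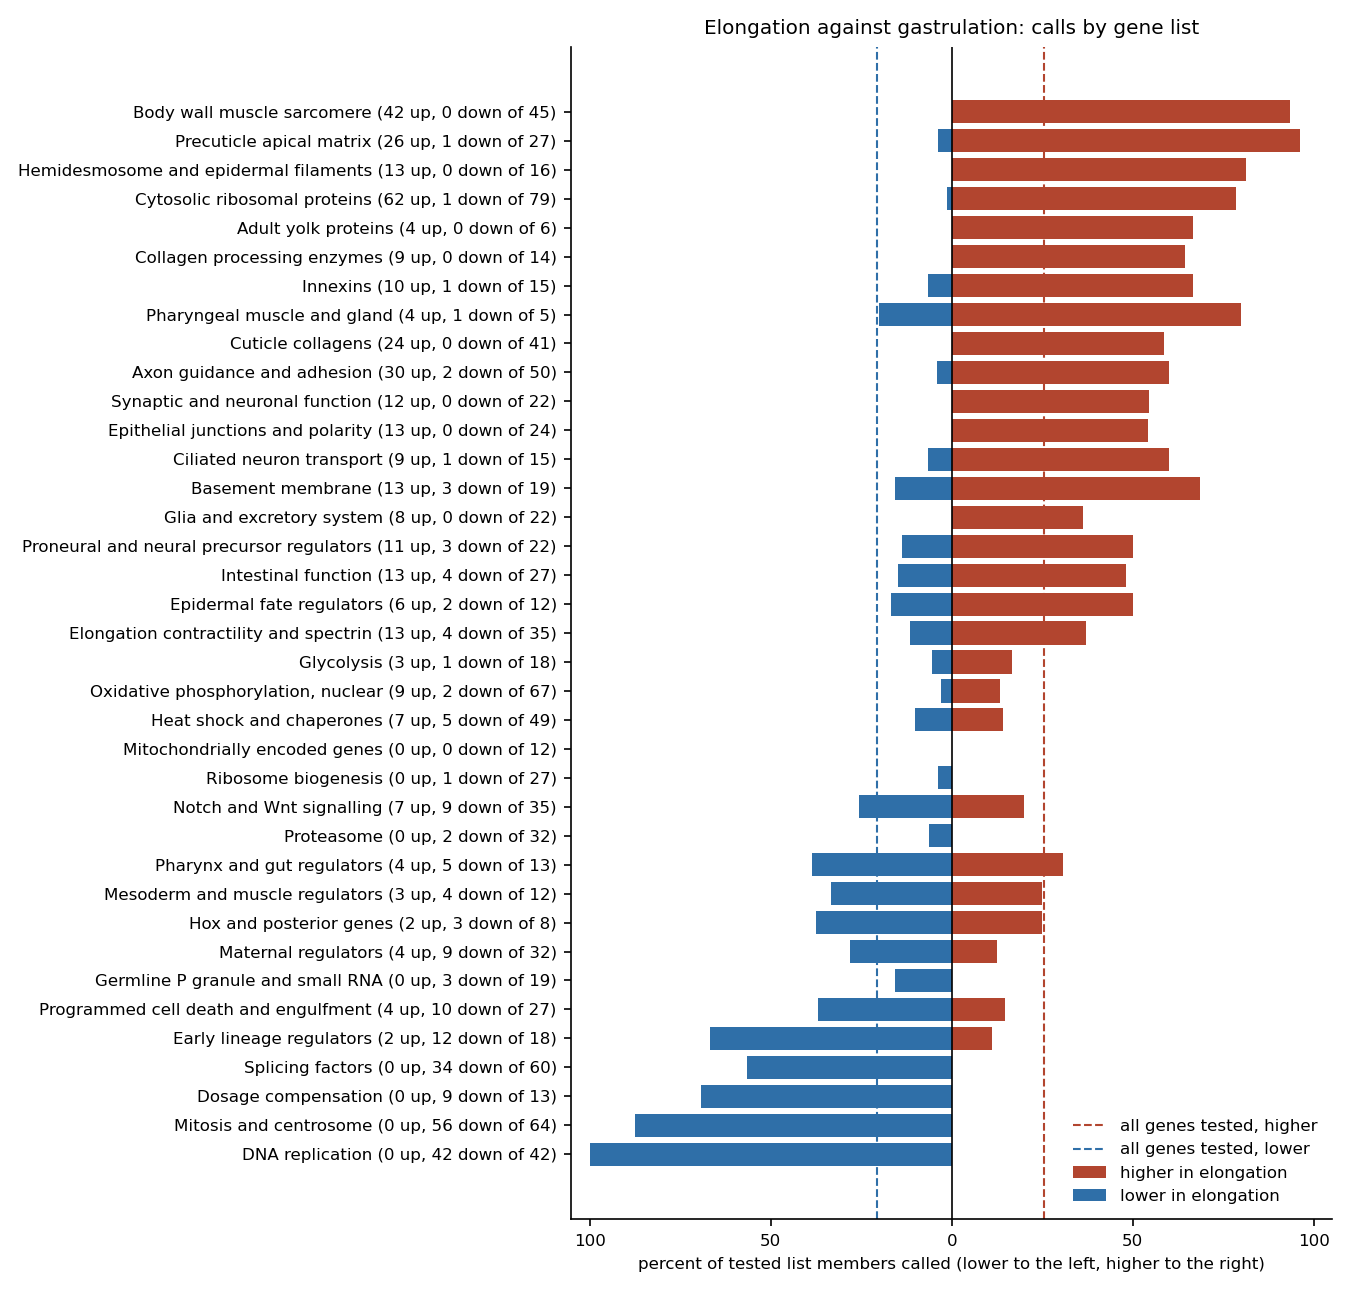
Share of the tested members of 37 gene lists called higher (bars to the right) or lower (bars to the left) in elongation than in gastrulation embryos, in percent, with the counts beside each list name and dashed lines at the share over all 7180 genes tested. All 42 tested DNA replication genes lie on the lower side and 42 of 45 body wall muscle genes on the higher side.

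Among genes averaging 50 CPM or more in elongation embryos, those with the largest rise were close to absent during gastrulation. The carnitine palmitoyltransferase family gene cpt-4 had 23.3 to 239.8 CPM (median 135) in elongation embryos, against 0 CPM in gastrulation embryos, which is at least 464-fold higher when the gastrulation group is set to a floor of 3 counts over the group. ZK669.2 had 27.8 to 109 CPM (median 87.4) in elongation embryos, against 0 CPM in gastrulation embryos, at least 288-fold higher by the same floor. K08E5.5 had 27.0 to 107 CPM (median 86.1) in elongation embryos, against 0 CPM in gastrulation embryos, at least 272-fold higher. These 3 genes had no count in any gastrulation embryo and at least 20 CPM in each of the 9 elongation embryos. The low-count filter passed a gene absent from gastrulation only with enough counts in at least 9 of the 10 elongation embryos. The intermediate filament gene ifa-3 had 104 to 684 CPM (median 479.6) in elongation embryos, against 0 to 3.54 CPM (median 0) in gastrulation embryos. The small heat shock protein gene hsp-12.1 had 75.8 to 1173 CPM (median 568) in elongation embryos, against 0 to 2.66 CPM (median 0) in gastrulation embryos. The zinc-finger neuronal factor gene egl-46 had 154 to 410.3 CPM (median 317) in elongation embryos, against 0 to 2.66 CPM (median 0) in gastrulation embryos. In most gastrulation embryos ifa-3, hsp-12.1 and egl-46 had no count. A further gene, hil-7, which encodes a linker histone, had the highest level of the group, 1654 to 5131 CPM (median 4108) in elongation embryos, against 0 to 31.0 CPM (median 2.74) in gastrulation embryos. The collagen gene col-121 had 237 to 1237 CPM (median 560.2) in elongation embryos, against 0 to 6.2 CPM (median 0.501) in gastrulation embryos. None of these 5 genes had overlapping windows, and their log2 fold changes were 9.49 ± 0.56, 9.47 ± 0.63, 9.45 ± 0.53, 9.05 ± 0.63 and 8.97 ± 0.52 (SE, edgeR adjusted p at most 2.16e-11). The lipocalin gene lpr-7 and pqn-73 also belonged to the 14 largest rises at such levels, with log2 fold changes of 9.64 ± 0.93 and 9.42 ± 0.84, and neither had enough counts for testing once embryo 135 was left out. The others were gldi-9 at 9.43, F54E2.2 at 9.20, ZK287.1 at 9.13 and Y58A7A.2 at 9.00.

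Among genes averaging 50 CPM or more in gastrulation embryos, those with the largest fall had nearly no counts during elongation, and several belong to large families. The BTB domain gene btb-8 had 0 CPM in elongation embryos, against 7.91 to 735 CPM (median 224) in gastrulation embryos, at least 1624-fold lower when the elongation group is set to a floor of 3 counts. Another gene, vet-1, had 0 to 1.03 CPM (median 0) in elongation embryos, against 13.2 to 3388 CPM (median 248) in gastrulation embryos. The Delta/Serrate family ligand gene dsl-2 had 0 to 4.75 CPM (median 0.362) in elongation embryos, against 105 to 2815 CPM (median 902) in gastrulation embryos. The Skp1-related gene skr-8, whose family links F-box proteins to ubiquitin ligases, had 0 to 1.19 CPM (median 0) in elongation embryos, against 96.6 to 1518 CPM (median 742) in gastrulation embryos, and its relatives skr-9 and skr-10 had log2 fold changes of -10.17 ± 0.88 and -9.86 ± 0.82. The F-box gene fbxb-25 had 0 CPM in elongation embryos, against 20.3 to 126 CPM (median 67.2) in gastrulation embryos, at least 343-fold lower, and T26E3.8 had 0 CPM in elongation embryos, against 19.1 to 187 CPM (median 75.1) in gastrulation embryos, at least 387-fold lower. All 6 genes given by embryo had 7.91 CPM or more in every gastrulation embryo, and none exceeded 4.75 CPM in an elongation embryo. The low-count filter required enough counts in at least 9 embryos. A gene absent from elongation was thus tested only if present in all 9 gastrulation embryos. The skr, btb and fbxb genes have near-identical relatives, so the reads of single members are uncertain. Also in this set were btb-11 at -9.79, F56G4.3 at -9.73, Y71A12B.11 at -9.70, sdz-30 at -9.64, Y57A10C.1 at -9.60 and T05D4.2 at -9.43 on the log2 scale.

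**Figure D2:**
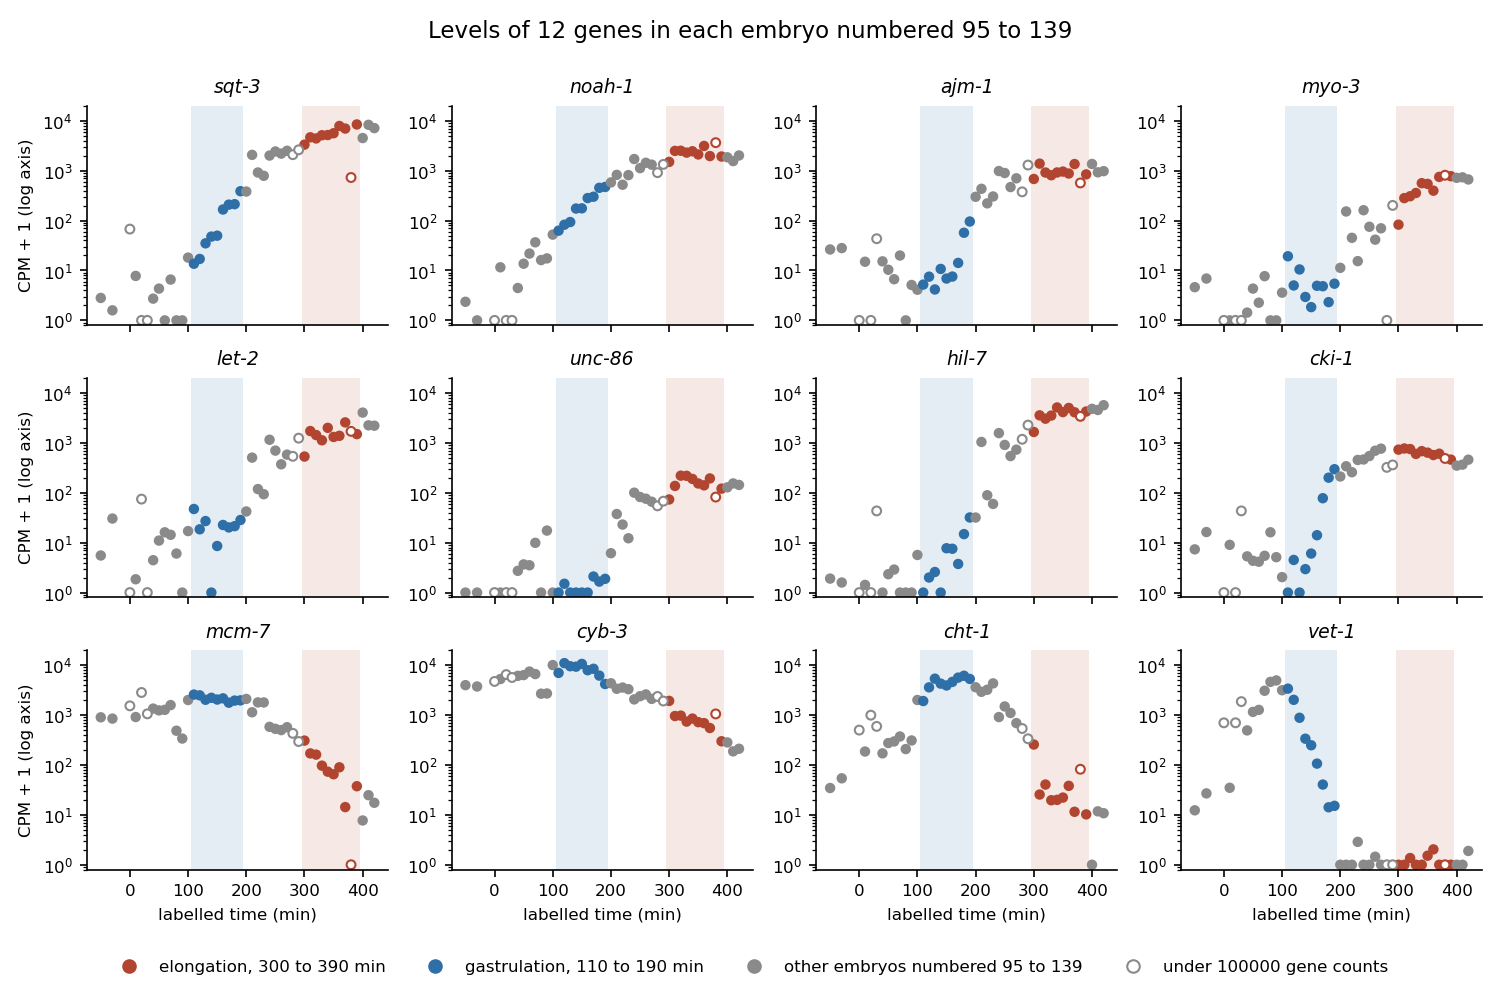
Levels of 12 genes in each of the 45 embryos numbered 95 to 139, as CPM + 1 on a log axis against labelled time in min, with the elongation window and its embryos in red, the gastrulation window and its embryos in blue and open circles for libraries under 100000 gene counts. In the elongation window sqt-3 stands at 3331 CPM or more in the 9 deeper embryos and mcm-7 at 307 CPM or less, while vet-1 is at 1.03 CPM or less.

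Most genes of cell division were lower during elongation. All 42 tested DNA replication genes fell, with a median log2 fold change of -2.76, against a background of 20.6% called lower over all genes. Besides mcm-7, with a log2 fold change of -4.26 ± 0.40 (SE, adjusted p = 2.68e-09), they included the helicase subunit gene mcm-2 at -4.16 ± 0.27 and the sliding clamp gene pcn-1 at -4.04 ± 0.35. The ribonucleotide reductase gene rnr-1, which supplies deoxynucleotides, had 33.3 to 80.7 CPM (median 66.6) in elongation embryos, against 462 to 1094 CPM (median 902) in gastrulation embryos. Of 64 mitosis and centrosome genes, 56 fell and none rose in the edgeR test, with a median of -2.19. The cyclin B gene cyb-3 had 298 to 1925 CPM (median 740.0) in elongation embryos, against 4195 to 11000 CPM (median 8478) in gastrulation embryos, and cyb-1 had 90.4 to 622 CPM (median 186) in elongation embryos, against 999.6 to 2186 CPM (median 1196) in gastrulation embryos. In both cyclin genes the highest elongation value was that of the 300 min embryo, and the windows did not overlap. The cohesin gene scc-1 (-3.08 ± 0.30) and the kinetochore gene kbp-1 (-3.05 ± 0.32) fell as well. By contrast, the CDK inhibitor gene cki-1, which holds cells out of the cycle, had 461 to 771 CPM (median 636) in elongation embryos, against 0 to 296 CPM (median 5.05) in gastrulation embryos, and a log2 fold change of 3.28 ± 0.79 (SE, adjusted p = 7.97e-04). The phosphatase gene cdc-25.1 was not called at -0.80 ± 0.24, a change short of 2-fold although its adjusted p was 0.00493.

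Splicing factor genes also fell as a group: 34 of 60 were lower and none higher, with a median log2 fold change of -1.04, and 30 were lower without embryo 135. The SR protein gene rsp-4 had a median of 394 CPM in elongation embryos, against 1616 CPM in gastrulation embryos, prp-17 had a median of 22.2 CPM in elongation embryos, against 92.2 CPM in gastrulation embryos, and mog-4 had a median of 23.6 CPM in elongation embryos, against 72.1 CPM in gastrulation embryos. None of the 27 ribosome biogenesis genes rose, and toe-1, the only one that fell, lost its call without embryo 135. Of 32 proteasome genes 2 fell, rpn-9 at -1.15 ± 0.16 and rpt-6 at -1.01 ± 0.17, and rpt-6 lost its call without embryo 135. That share, 6.25%, was below the 20.6% of all genes. Under relative log expression scaling 8 proteasome genes and 4 ribosome biogenesis genes were lower.

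Genes that set the dose of the X chromosome and the sex of the embryo were lower in elongation embryos. Of 13 such genes 9 fell and none rose, with a median log2 fold change of -1.60. The sex switch gene xol-1 had 0 to 1.13 CPM (median 0) in elongation embryos, against 21.3 to 63.2 CPM (median 36.8) in gastrulation embryos. The X-signal element gene sex-1, a nuclear receptor, had 11.9 to 143 CPM (median 29.4) in elongation embryos, against 389.7 to 1319 CPM (median 548) in gastrulation embryos. The windows did not overlap in either gene. Genes of the complex that loads onto the X chromosome included sdc-2 at -2.53 ± 0.23, sdc-3 at -3.27, mix-1 at -1.64 and dpy-28 at -1.52, while dpy-21, dpy-26, dpy-27 and dpy-30 were not called.

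Regulators that assign early lineages mostly fell, with 12 of 18 lower, 2 higher and a median log2 fold change of -1.68. The T-box genes tbx-11 and tbx-9 had log2 fold changes of -7.59 ± 0.74 and -5.28 ± 0.42. The 2 that rose encode Wnt ligands, cwn-1 at 1.31 ± 0.22 and mom-2 at 1.03 ± 0.27, and only 1 of them was called under relative log expression scaling. Tissue regulators were divided. Of 12 epidermal regulators, 6 rose (50.0%) and 2 fell (16.7%), against 25.4% and 20.6% of all genes. The GATA factor gene elt-1, which specifies the epidermis, had a median of 46.3 CPM in elongation embryos, against 311 CPM in gastrulation embryos. The later epidermal GATA factor gene elt-3 had a median of 193 CPM in elongation embryos, against 23.0 CPM in gastrulation embryos. The nuclear receptor gene nhr-2 fell to a median of 0.887 CPM in elongation embryos, against 315 CPM in gastrulation embryos. Among 12 mesoderm regulators, hnd-1 (-4.15 ± 0.37), ceh-40 (-4.99 ± 0.34), the Notch receptor gene lin-12 (-2.12 ± 0.31) and hlh-1, the MyoD relative (-1.63 ± 0.37), fell, and egl-15 (4.71 ± 0.54), mab-5 (3.85 ± 0.39) and let-381 (2.77 ± 0.56) rose. These mesoderm shares, 33.3% lower and 25.0% higher, stood against 20.6% and 25.4% of all genes. The gene egl-15, which encodes the FGF receptor, was not tested without embryo 135. Leaving out any 1 gastrulation embryo gave 4 or 5 mesoderm regulators called higher, and with no filter 8 of 20 rose and 5 fell.

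Among 13 pharynx and gut regulators 4 rose (30.8%) and 5 fell (38.5%), against 25.4% and 20.6% of all genes. Without any 1 gastrulation embryo 6 or 7 rose, and with no filter 8 of 20 rose and 5 fell. The homeobox gene ceh-22, a regulator of pharyngeal muscle genes, had a median of 64.1 CPM in elongation embryos, against 0 CPM in gastrulation embryos, and the six-family homeobox gene ceh-34 had a median of 75.0 CPM in elongation embryos, against 2.52 CPM in gastrulation embryos. The Pax-related gene eyg-1 had a log2 fold change of 7.68 ± 0.71 (SE, adjusted p = 9.64e-08), and peb-1 had a log2 fold change of 7.03 ± 0.58 (SE, adjusted p = 3.27e-10). Those that fell were the gut GATA factor gene elt-7 (-2.39 ± 0.37), die-1 (-2.05 ± 0.43), ztf-11 (-1.85 ± 0.35), glp-1 (-1.54 ± 0.48) and eya-1 (-1.23 ± 0.25). Of 8 Hox and posterior genes 2 rose (25.0%) and 3 fell (37.5%), against 25.4% and 20.6% of all genes. The mid-body genes mab-5 and lin-39 rose, with lin-39 at 3.28 ± 0.48. The posterior gene nob-1 (-2.36 ± 0.29) and the anterior gene ceh-13 (-1.25 ± 0.22) fell, as did ceh-40.

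Most testable genes of the epidermal apical matrix were higher during elongation. The precuticle list has 52 genes in the table, of which 27 were tested: 26 rose and 1, mlt-10 (-1.66 ± 0.25), fell, with a median log2 fold change of 3.32, against 25.4% called higher over all genes. With no filter 32 of 51 rose and 3 fell. Together the genes of this list in the table held 1.27 to 1.53% of gene counts in elongation embryos, against 0.0420 to 0.369% in gastrulation embryos. The zona pellucida domain protein gene noah-1 had 1501 to 3133 CPM (median 2304) in elongation embryos, against 61.8 to 471 CPM (median 175) in gastrulation embryos, and a log2 fold change of 3.36 ± 0.34 (SE, adjusted p = 1.01e-08). The gene dyf-7, needed to anchor dendrite tips, had a log2 fold change of 7.87 ± 0.56 (SE, adjusted p = 3.22e-11), mlt-8 had a log2 fold change of 7.73 ± 0.34 (SE, adjusted p = 1.32e-13), and cutl-24 had a log2 fold change of 7.35 ± 0.65 (SE, adjusted p = 1.07e-09). Of 176 cuticle collagen genes 41 were tested, 24 rose and none fell in the edgeR test. With no filter 44 of 164 rose and 9 fell, against 25.9% and 17.1% of all genes in that fit, and DESeq2 called 31 higher and 7 lower. Besides col-121 they included dpy-7, with 443 to 1440 CPM (median 815) in elongation embryos, against 0 to 17.7 CPM (median 2.64) in gastrulation embryos. The windows did not overlap in noah-1 or dpy-7. The 176 collagen genes together held 2.07 to 4.10% of gene counts in elongation embryos, against 0.0826 to 0.476% in gastrulation embryos. Collagen genes have near-identical copies, so single members are uncertain. Of 14 collagen processing genes 9 rose, with the tetraspanin gene tsp-15 at 7.91 ± 0.51, the prolyl hydroxylase subunit gene phy-2 at 4.10 ± 0.39 and the lysyl hydroxylase gene let-268 at 2.75 ± 0.34, and none fell, while with no filter 8 of 18 rose and 1 fell.

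Genes that hold epidermal cells together and shape them rose in part. Of 24 junction and polarity genes 13 rose and none fell. The apical junction gene ajm-1 had 682 to 1383 CPM (median 918) in elongation embryos, against 3.16 to 94.8 CPM (median 6.55) in gastrulation embryos, and the claudin-like gene vab-9 had a median of 200.1 CPM in elongation embryos, against 0.549 CPM in gastrulation embryos. The E-cadherin gene hmr-1 had a smaller log2 fold change of 1.11 ± 0.17. Among 35 genes of epidermal contractility and spectrin 13 rose (37.1%) and 4 fell (11.4%), against 25.4% and 20.6% of all genes. The median of the list was 0.60. The members that rose included the fusogen gene eff-1 (7.31 ± 0.67), the formin gene fhod-1 (6.79 ± 0.62), the spectrin gene sma-1 (2.66), the myosin light chain gene mlc-4 (1.29) and the myosin heavy chain gene nmy-1 (1.67), which acts in elongation. Those that fell included ect-2 (-2.38 ± 0.34), act-2 (-1.13 ± 0.28) and the myosin heavy chain gene nmy-2 (-1.50 ± 0.19), which drives cytokinesis. All 16 genes of the hemidesmosomes that carry muscle force across the epidermis were tested, and 13 rose, with a median of 4.11. The transmembrane linker gene mup-4 had a log2 fold change of 7.19 ± 0.39 (SE, adjusted p = 1.68e-12), unc-23 had a log2 fold change of 6.97 ± 0.65 (SE, adjusted p = 2.55e-09), and the plakin gene vab-10 rose by 3.84.

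Body wall muscle genes rose almost as a block. Of 45 tested sarcomere genes 42 rose and none fell, with a median log2 fold change of 3.99, and without embryo 135 the count was 41 of 44. The list held 1.19 to 3.15% of gene counts in elongation embryos, against 0.238 to 0.526% in gastrulation embryos. The troponin I gene tni-1 had 229.7 to 1792 CPM (median 1023) in elongation embryos, against 0 to 19.7 CPM (median 1.98) in gastrulation embryos. The windows did not overlap in tni-1. The troponin T gene tnt-3 had a log2 fold change of 7.36 ± 0.52 (SE, adjusted p = 3.06e-11), the tropomodulin gene tmd-2 had a log2 fold change of 7.29 ± 0.59 (SE, adjusted p = 2.83e-10), and myo-3 had a log2 fold change of 6.57 ± 0.50 (SE, adjusted p = 1.15e-10). The second myosin heavy chain gene of the body wall, unc-54, had 116 to 391 CPM (median 261) in elongation embryos, against 7.8 to 66.0 CPM (median 22.9) in gastrulation embryos, with a log2 fold change of 3.28 ± 0.36 (SE, adjusted p = 3.17e-08). The 3 tested genes that were not called were unc-112, pat-3 and sca-1. Genes of the basement membrane, which lies between muscle and epidermis, rose in 13 of 19 cases and fell in 3. The type IV collagen genes emb-9 and let-2 had log2 fold changes of 6.49 ± 0.46 and 6.20 ± 0.44. The gene emb-9 had 181 to 724 CPM (median 532) in elongation embryos, against 0.655 to 25.3 CPM (median 4.51) in gastrulation embryos, and let-2 had 532 to 2576 CPM (median 1435) in elongation embryos, against 0 to 46.4 CPM (median 20.4) in gastrulation embryos. The SPARC-like gene ost-1 had a log2 fold change of 6.17 ± 0.42 (SE, adjusted p = 1.82e-11). Those that fell were the dystroglycan gene dgn-1 (-1.45 ± 0.37), lon-2 (-1.24 ± 0.22) and the laminin alpha gene epi-1 (-1.13 ± 0.27), while the other laminin alpha gene, lam-3, rose by 3.33 on the log2 scale.

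Neuronal genes were higher in elongation embryos, and many were too low to be tested. Of 22 neural precursor and identity regulators 11 rose and 3 fell, and with no filter 19 of 35 rose and 3 fell. The POU homeobox gene unc-86, which specifies several neuron types, had 72.5 to 219 CPM (median 153) in elongation embryos, against 0 to 1.1 CPM (median 0) in gastrulation embryos, and the windows did not overlap. The LIM homeobox gene lin-11 had a log2 fold change of 8.06 ± 0.49 (SE, adjusted p = 3.89e-12), and the homeobox genes ttx-3 and unc-42 rose by 7.19 and 7.00 on the log2 scale. Those that fell were ceh-36 (-4.30 ± 0.34), ceh-43 (-1.48 ± 0.24) and the proneural gene lin-32 (-1.14 ± 0.39). Of 50 axon guidance and adhesion genes 30 rose and 2 fell, with a median of 1.56: the plexin gene plx-2 (6.21 ± 0.54), the dendrite receptor gene dma-1 (5.86 ± 0.42) and the ephrin gene efn-2 (5.42 ± 0.60) had the largest rises among those above 20 CPM. The 2 that fell were vang-1 and dgn-1. Of 65 synaptic genes 22 were tested, 12 rose and none fell, and with no filter 30 of 60 rose and 3 fell. The potassium channel gene slo-1 had 6.76 to 85.8 CPM (median 40.4) in elongation embryos, against 0 CPM in gastrulation embryos, at least 165-fold higher by the floor of 3 counts, and the windows did not overlap. The others with the largest rises were aex-3 (6.75 ± 0.51) and ric-3 (5.63 ± 0.56).

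Ciliary genes, which build the sensory endings of neurons, showed how much the low-count filter removed. Of 58 genes 15 were tested, 9 rose and 1, hyls-1 (-1.68 ± 0.27), fell. With no filter 47 of 57 rose and 1 fell. Without embryo 135 the counts were 12 tested and 6 higher, because tub-1, nphp-1 and tctn-1 were no longer tested. Leaving out any 1 gastrulation embryo gave 14 or 15 called higher, and leaving out any 1 elongation embryo gave 6 to 9. The RFX factor gene daf-19, which turns on ciliary genes, rose by 3.04 on the log2 scale. Among 22 genes of glia and the excretory system 8 rose (36.4%, against 25.4% of all genes) and none fell. With no filter 14 of 36 rose and 2 fell, against 25.9% and 17.1% of all genes in that fit. The fusogen gene aff-1 was at 6.80 ± 0.71, the EGF receptor gene let-23 at 5.14 ± 0.54 and exc-5, not tested without embryo 135, at 6.13 ± 0.81. Of 15 innexins, the subunits of gap junctions, 10 rose and 1 fell. The gene inx-13 had 614 to 1656 CPM (median 1105) in elongation embryos, against 1.58 to 52.3 CPM (median 9.33) in gastrulation embryos, and the windows did not overlap. It was followed by inx-12 (6.28 ± 0.45) and inx-15 (6.04 ± 0.38), and the one that fell was inx-2 (-1.27 ± 0.30).

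Among 27 intestinal genes 13 rose and 4 fell, with a median log2 fold change of 1.08. The microvillar protein gene eps-8 had 83.3 to 529.5 CPM (median 346) in elongation embryos, against 3.95 to 26.6 CPM (median 9.83) in gastrulation embryos. The gut intermediate filament gene ifb-2 had a log2 fold change of 4.80 ± 0.53 (SE, adjusted p = 3.53e-08), the cathepsin gene cpr-6 had a log2 fold change of 3.77 ± 0.42 (SE, adjusted p = 4.72e-08), and the microvillar actin gene act-5 rose by 3.01. Those that fell were glo-1 (-2.73 ± 0.41), lbp-1 (-2.27 ± 0.26), wht-2 (-2.16 ± 0.25) and ftn-2 (-1.26 ± 0.25). Leaving out any 1 gastrulation embryo gave 17 to 21 called higher, and with no filter 23 of 45 rose and 5 fell. The 6 yolk protein genes, which are expressed in the adult intestine, held 0.0435 to 0.498% of gene counts in elongation embryos and 0.0199 to 0.462% in gastrulation embryos. The highest shares were those of the 340 min embryo in the elongation window and of the 110 min embryo in the gastrulation window, where the other 8 held at most 0.0989%. The yolk gene vit-2 had 63.1 to 1084 CPM (median 399.5) in elongation embryos, against 39.0 to 744 CPM (median 91.1) in gastrulation embryos, with the windows overlapping, and a log2 fold change of 1.38 ± 0.52 (SE, adjusted p = 0.0228). The genes vit-2, vit-4, vit-5 and vit-6 were called higher, none of them was under relative log expression scaling, and 1 yolk gene was without the 340 min embryo. The adult collagen gene col-19 overlapped too, with 18.2 to 227 CPM (median 82.7) in elongation embryos, against 3.9 to 239 CPM (median 32.8) in gastrulation embryos, and was not called (adjusted p = 0.177). No sperm gene of 46 passed the filter, and that list held at most 0.0139% of gene counts in elongation embryos and at most 0.0104% in gastrulation embryos. The part of adult RNA in the intestinal and collagen values was not tested. Of 29 pharyngeal muscle and gland genes only 5 were tested, of which ceh-22, kel-1, tni-4 and abu-14 rose and nep-1 (-4.85 ± 0.30) fell, and with no filter 10 of 28 rose and 5 fell.

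Cytosolic ribosomal protein genes rose by small and similar amounts. Of 79 tested 62 rose, with log2 fold changes from 1.01 to 1.78 and a median of 1.29 over the list, and 1, rpl-11.1 (-1.04 ± 0.36), fell. Without embryo 135, 64 rose and none fell, and 48 rose under relative log expression scaling. The list held 8.93 to 15.1% of gene counts in the 9 elongation embryos, against 3.82 to 5.96% in gastrulation embryos, and 4.71% in embryo 135. The small subunit gene rps-8 had 2618 to 6086 CPM (median 4330) in elongation embryos, against 770.2 to 1703 CPM (median 1385) in gastrulation embryos, and the windows did not overlap. The paralogs rpl-11.1 and rpl-11.2 moved in opposite directions, with rpl-11.2 at 1.78 ± 0.30, and reads shared by near-identical copies make such single values uncertain. Of 67 nuclear oxidative phosphorylation genes 9 rose and 2 fell, fewer in both directions than the 25.4% and 20.6% of all genes, and 4 rose and 3 fell under relative log expression scaling. The called members included cox-15 (1.70 ± 0.29), gas-1 (1.59 ± 0.28) and ucr-2.3 (-3.69 ± 0.37). None of the 12 mitochondrially encoded genes was called by edgeR or by DESeq2, although 6 had an adjusted p under 0.05 in edgeR, with changes short of 2-fold, and 8 an unadjusted p under 0.05; the median was 0.51. Among 18 glycolysis genes ipgm-1 (1.73 ± 0.39), enol-1 (1.50 ± 0.22) and hxk-2 (1.35 ± 0.31) rose, and pyk-2, which lost its call without embryo 135, fell just past 2-fold. The glycolysis shares, 16.7% higher and 5.56% lower, were also below those of all genes.

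Of 27 cell death and engulfment genes 4 rose (14.8%) and 10 fell (37.0%), against 25.4% and 20.6% of all genes. The bZIP gene ces-2, which regulates certain cell deaths, had 15.4 to 2615 CPM (median 462) in elongation embryos, against 0 to 21.3 CPM (median 0.501) in gastrulation embryos, and its windows overlapped. The death trigger gene egl-1 had a median of 29.2 CPM in elongation embryos, against 4.75 CPM in gastrulation embryos, with a log2 fold change of 2.03 ± 0.40 (SE, adjusted p = 1.12e-04). The genes of the core pathway ced-3, ced-4 and ced-9 fell by 2.33, 1.92 and 1.78 on the log2 scale, and the nuclease gene crn-6 had -4.16 ± 0.44. Of 35 Notch and Wnt genes 7 rose (20.0%) and 9 fell (25.7%), shares near the 25.4% and 20.6% of all genes. Besides dsl-2, dsh-2 (-3.11 ± 0.35) was among those that fell, and the Wnt ligand genes lin-44 (6.00 ± 0.51) and egl-20 (3.39 ± 0.66) were among those that rose. Of 49 heat shock and chaperone genes 7 rose (14.3%) and 5 fell (10.2%), below the 25.4% and 20.6% of all genes. The list's median changed sign between TMM scaling (0.10) and relative log expression scaling (-0.11). The small heat shock genes hsp-25 (5.47 ± 0.40) and hsp-12.2 (5.46 ± 0.59) followed hsp-12.1. Of 32 maternal regulators 9 fell (28.1%, against 20.6% of all genes) and 4 rose. The nanos gene nos-2 (-3.64 ± 0.40) and spn-4 (-2.16 ± 0.29) fell, while the polarity kinase gene par-1 (2.81 ± 0.29), par-3 (1.51 ± 0.33), perm-4 (2.00 ± 0.44) and perm-2 rose. Of 19 P granule and germline small RNA genes meg-3 (-2.34 ± 0.41), mes-4 (-2.02 ± 0.32) and meg-1 (-1.66 ± 0.32) fell, a share of 15.8%, against 20.6% of all genes. Of the enzymes of eggshell and hatching, the chitinase gene cht-1 had 9.23 to 256 CPM (median 21.2) in elongation embryos, against 1913 to 6140 CPM (median 4625) in gastrulation embryos, and the hatching protease gene hch-1 had 304 to 930.3 CPM (median 512) in elongation embryos, against 0 to 51.4 CPM (median 1.68) in gastrulation embryos. Neither gene had overlapping windows.

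For the embryo as a whole, 3 measures were tested over embryos with exact permutation tests, two-sided and adjusted over the 3. Thinned to the 12338 counts of embryo 135, elongation embryos held 3613 ± 339 detected genes and gastrulation embryos 3536 ± 50.5 (SD, n = 10 and 9, exact p = 0.677, adjusted 0.775). When embryo 135 was left out and the others were thinned to 513094 counts, a setting chosen after its depth was seen, elongation embryos held 9956 ± 326 detected genes and gastrulation embryos 8925 ± 244 (SD, n = 9 each). The difference of 1031 genes had an exact p of 4.11e-05, the smallest these permutations can give (adjusted 0.000123), with all 9 elongation embryos above all 9 gastrulation embryos. The effective number of genes, the exponential of the Shannon entropy of the counts, was 1765 ± 260.4 in elongation embryos and 1720.0 ± 70.2 in gastrulation embryos at the lower depth (exact p = 0.775, adjusted 0.775). Without embryo 135 and thinned to 513094 counts it was 2485 ± 102 and 2245 ± 83.3 (exact p = 8.23e-05, adjusted 0.000123). Without thinning, genes on the X chromosome held 14.6 ± 1.74% of gene counts in elongation embryos and 12.5 ± 1.24% in gastrulation embryos (exact p = 0.00225, adjusted 0.00676). With embryo 135 left out and the others thinned, the shares were 14.1 ± 0.539% and 12.5 ± 1.25% (exact p = 0.00448). Embryo 135 itself held 19.3%. Of 923 X-linked genes tested 340 were higher (36.8%) and 173 lower (18.7%), with a median log2 fold change of 0.39, while on the 5 autosomes 20.7 to 27.8% were higher and 17.8 to 24.4% lower.

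Because each window spans many minutes, the slope on labelled time was tested within each, in log2 units per 90 min. Within elongation 823 of 8441 genes rose (9.75%) and 433 fell (5.13%). These counts rested in part on the ends of the window: without the 390 min embryo they were 405 and 214, and without the 300 min embryo 528 and 185. Without embryo 135 they were 954 and 519. Of ciliary genes 31 of 49 tested rose and 1 fell, with a median slope of 3.20, and 15 of 38 synaptic genes rose and none fell, with a median of 1.54. Of 50 sarcomere genes 17 rose, with a median of 1.35, and 13 of 37 precuticle genes rose while 5 fell. Division genes went on falling: 36 of 64 mitosis genes fell and 1 rose, and 18 of 42 replication genes fell and none rose in the edgeR test. The lipocalin gene lpr-4 had the second largest rise among genes above 50 CPM, with a slope of 7.42 (edgeR adjusted p = 2.50e-06), and had 1.13 to 1139 CPM (median 71.3) in elongation embryos, against 0 to 7.68 CPM (median 1.77) in gastrulation embryos. The others were F55D12.2 (7.70), C35A5.11 (6.89), ZC449.2 (6.55) and F30H5.3 (6.04). The largest falls were those of the insulin-like gene ins-2 (-7.62), ces-2 (-5.58), C01G6.3 (-5.50), ZK1053.4 (-5.20) and C07D10.5 (-4.18). The gene ces-2 went down from 2615 CPM in the 300 min embryo to 15.4 CPM in the 390 min embryo, with the levels of the 9 deeper embryos lowest at the end of the window.

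Within gastrulation 907 of 6909 genes rose with time (13.1%) and 1079 fell (15.6%). The precuticle genes that could be tested were already rising: 12 of 16 rose and 1 fell, with a median slope of 4.13 log2 units per 90 min, and 10 of 21 junction genes and 9 of 16 basement membrane genes rose while none fell. Of 79 ribosomal protein genes 26 rose and 1 fell. Replication genes fell in 14 of 42 cases, and of 65 mitosis genes 9 rose and 7 fell. Maternal regulators fell in 21 of 35 cases, with a median slope of -1.92. The gene cki-1 had a slope of 11.31 (adjusted p = 7.57e-08), and the neural progenitor factor gene sox-2 a slope of 8.71 (adjusted p = 3.16e-08). At sox-2 the windows overlapped, with 249 to 489.5 CPM (median 303) in elongation embryos, against 1.5 to 907 CPM (median 95.1) in gastrulation embryos, and it was not called between them (0.79 ± 0.66, adjusted p = 0.298). Among genes averaging 50 CPM or more over the window, the largest rise was that of the bZIP gene zip-7 (13.68), followed by cki-1, the E2F-like gene efl-3 (11.05), sox-2 and sym-1 (8.08). The unit of 90 min is longer than the labelled span of 110 to 190 min. In the gastrulation embryos zip-7 had 0 to 372 CPM with counts in 6 of 9, and cki-1 had counts in 7. Slopes of genes with embryos at 0 depend on the prior count. The largest falls at such levels were those of C17E4.2 (-9.86), vet-1 (-9.77), fbxb-90 (-9.50), Y106G6D.2 (-9.48) and Y43B11AL.1 (-9.06). All 6 yolk genes fell within this window with a median slope of -3.57, together with 11 of 40 collagens and 7 of 25 intestinal genes, and the part of the yolk signal in the other falls was not tested.

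**Figure D3:**
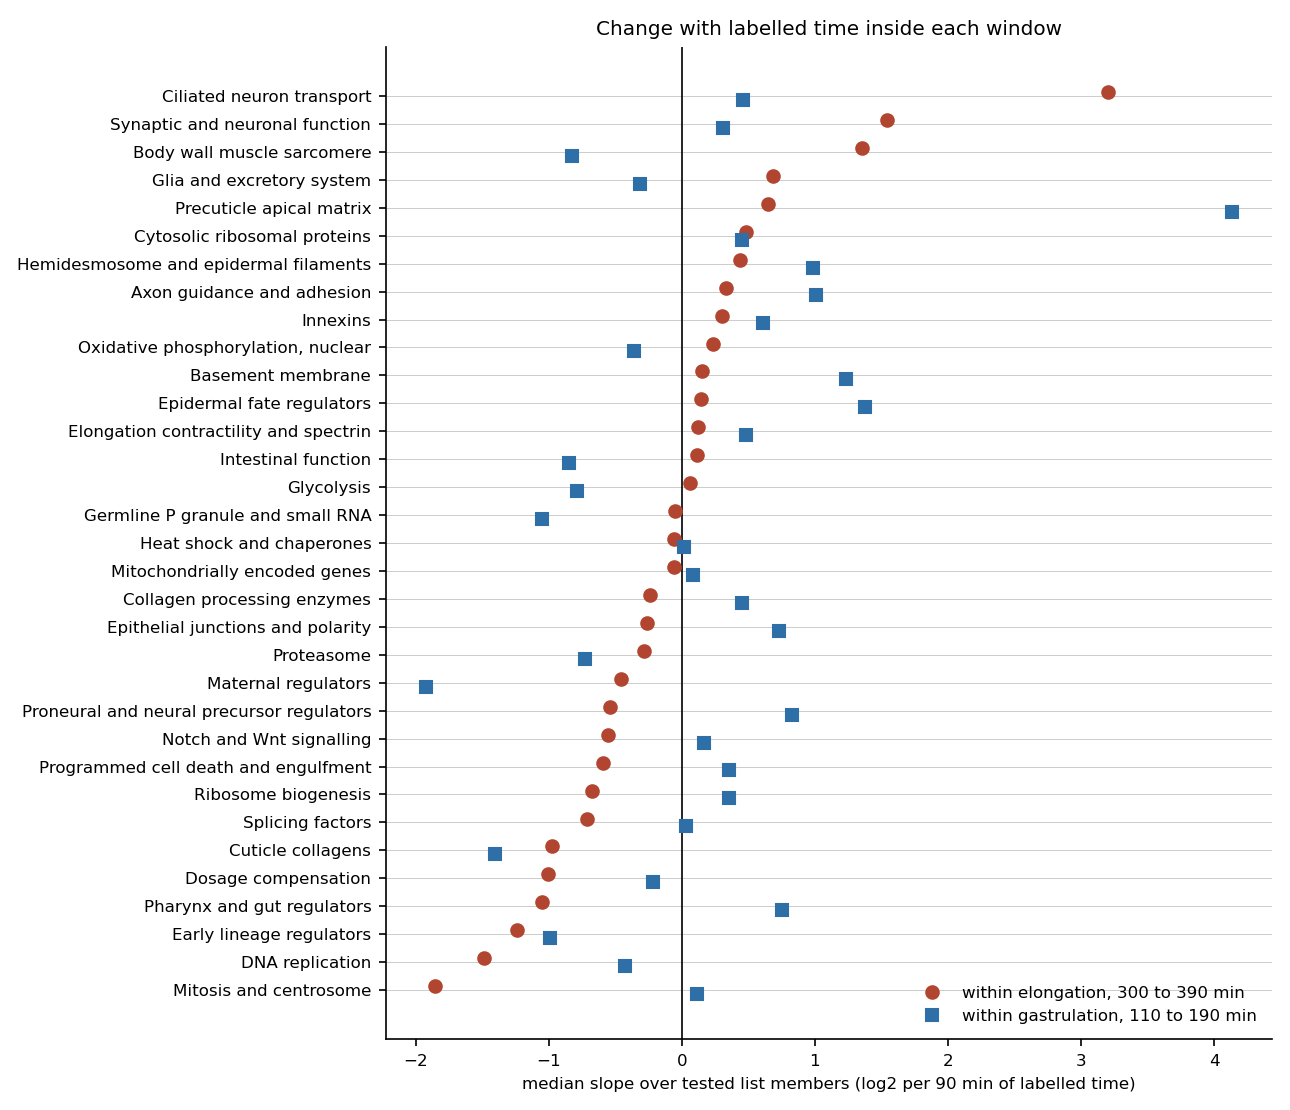
Median slope over the tested members of each gene list within the elongation window (red circles) and within the gastrulation window (blue squares), in log2 units per 90 min of labelled time, for lists with at least 10 tested members in each. Ciliary genes have the highest median in the elongation window at 3.20 and precuticle genes the highest in the gastrulation window at 4.13.

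The 10 embryos between the windows, labelled 200 to 290 min, were placed on a scale where the mean of all 10 elongation embryos, embryo 135 included, is 100% and that of the gastrulation embryos 0%, on log2(CPM + 10). The median position of the genes called higher was 8.00% at 200 min, 62.7% at 210 min, 17.8% at 220 min, 30.4% at 230 min and 75.9% at 240 min. The embryos labelled 210 and 240 min thus stood beyond later-labelled ones, and the first 3 and the 240 min embryo had between 135936 and 194089 gene counts. The deeper embryos at 260 and 270 min stood at 58.9% and 68.0%, and the 300 min embryo at 78.7%, the lowest of the 9 in the elongation window. Within gastrulation the 190 min embryo stood highest, at 12.8%. The libraries at 280 and 290 min held only 18624 and 74793 gene counts, with positions of -3.32% and 71.9%, and embryo 135, with 12338 counts, stood at -5.16%. For the genes called lower the same 3 libraries stood at 114%, 82.6% and 168.5%. The parts of depth and age in these positions were not tested.

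**Figure D4:**
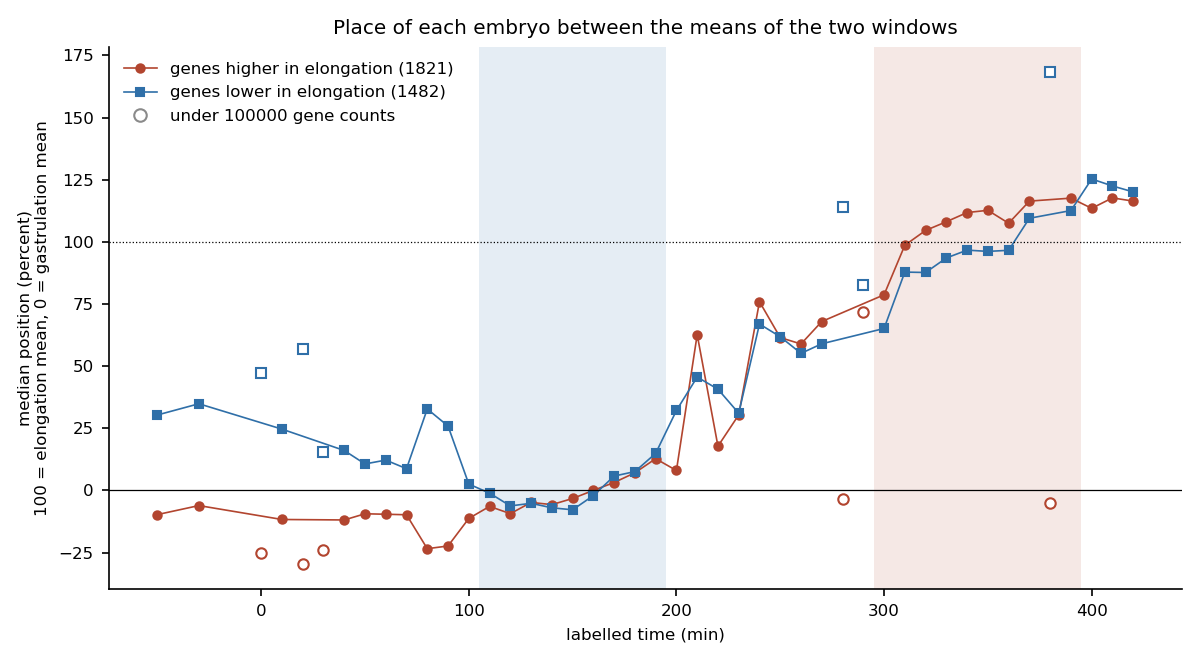
Median position of each embryo numbered 95 to 139 between the mean of the 10 elongation embryos (100%) and that of the gastrulation embryos (0%), against labelled time in min, for the 1821 genes higher (red circles) and the 1482 genes lower (blue squares) in elongation, with open symbols for libraries under 100000 gene counts. Among the deeper libraries the genes higher in elongation go from 12.8% at 190 min to 78.7% at 300 min, but not in the order of time: the 200 min embryo stands below the 190 min one, the 210 and 240 min embryos stand above later ones, and the 250 min embryo stands above the 260 min one.

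The same positions were read for the called members of each gene list. Over the 5 embryos labelled 200 to 240 min the collagen processing genes that rose stood at a median of 59.9%, the basement membrane genes at 50.0% and the junction genes at 47.9%. Sarcomere genes stood at 12.4%, synaptic genes at 12.3%, ciliary genes at 9.02% and the genes of glia and the excretory system at -2.28%. Over the 3 embryos of at least 100000 counts at 250 to 290 min the collagen processing genes reached 95.7%, sarcomere genes 57.8%, synaptic genes 38.9% and ciliary genes 31.1%. Of the genes that fell, replication genes stood at 26.5% and then 58.6%, and mitosis genes at 12.7% and then 41.9%. The genes read were those called between the windows that set the scale, while the embryos read were outside both windows. No test was made of the differences. Levels before gastrulation were also read for the genes called between the windows. The 3 deep embryos labelled up to 30 min were those at -50, -30 and 10 min. Of 1821 genes called higher, 389 had a median over these 3 that was more than 2 times their gastrulation median. By the same threshold this held for 244 of the 1482 genes called lower. Of these 1482, 568 had an early median at or above their gastrulation median, a looser threshold. The gastrulation values also entered the calls, so these counts depend on the selection. The share over all genes tested was not counted.

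The same windows were tested in embryos outside the run. Embryos numbered 51 to 70 include 6 labelled 310 to 380 min and 4 labelled 110 to 140 min. Of 6961 genes tested there 448 were higher in elongation (6.44%) and 230 lower (3.3%). Of the 1821 genes called higher in the run, 1571 could be tested in these embryos, 1455 (92.6%) had the same sign, 406 were called higher and none lower. Of the 1482 called lower, 1312 could be tested, 1204 (91.8%) had the same sign, 184 were called lower and none higher. Among the 3563 genes not called in the run that could be tested, 26 were called higher and 2 lower. The 340 min embryo numbered 65 had 6.66% of its reads in genes and correlated with the 9 elongation embryos of the run at an average of 0.402. Without it 786 genes were higher and 347 lower, of which 648 and 275 had the same call in the run, and 1 gene called in each direction in the run had the opposite call. Without embryo 57, 67 or 68 the number called higher was 278, 281 and 271. By list, 16 of 25 precuticle, 16 of 45 sarcomere and 8 of 15 hemidesmosome genes were called higher there, and 15 of 40 replication and 8 of 63 mitosis genes lower. Ribosomal protein genes were called higher in 6 cases of 79, and no yolk gene was called, with a median log2 fold change of -0.76 for the yolk list there. Of 33 intestinal genes tested there 1 was called higher and 1 lower, with a median of 0.04. Of 48 cuticle collagen genes 9 were called higher and 0 lower, with a median of -0.29, against 1.30 in the run.

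**Figure D5:**
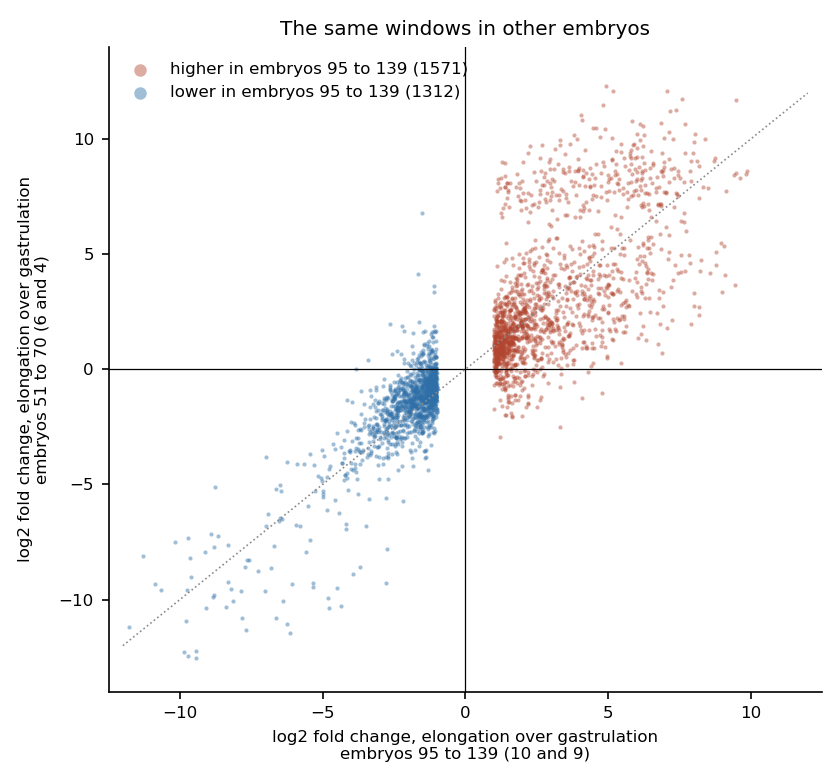
Log2 fold change, elongation over gastrulation, of 1571 genes called higher (red) and 1312 called lower (blue) in embryos 95 to 139 (horizontal axis, 10 and 9 embryos) against the value of the same gene in embryos 51 to 70 (vertical axis, 6 and 4 embryos), with a dotted line of equal change. Of the red points 262 are genes with no count in the 4 gastrulation embryos numbered 51 to 70, whose fitted values, up to 12.29, depend on the prior count.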

How the data were processed

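The authors deposited 1 table of raw read counts per gene and embryo with 20784 lines (20687 genes, 92 spike-in RNAs, 5 counters), and no normalization was applied to it. Per the submitters' processing notes the software was HTSeq 0.5.4p3, CASAVA 1.8 and Bowtie2 2.1.0, listed without roles. Which genome build was used was not given in the sources used here. No label mentions molecular identifiers, so the floors used for bounds reflect counting error only. The counter of reads aligned more than once was at 0 in every embryo. Symbols and chromosomes came from Ensembl release 115, with 20038 genes matched and 10743 given a symbol. The counters and spike-ins stayed out of library sizes.

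Counts were tested with edgeR 4.0.16 in R 4.3.3 (TMM, filterByExpr with a minimum count of 10, quasi-likelihood F-test) on the embryos of each comparison alone, with Benjamini-Hochberg adjustment over all genes tested. CPM are gene counts scaled to 1000000 per embryo. The SE of each edgeR log2 fold change was derived as its absolute value over the square root of the F statistic. The fit was first tested on simulated data. Embryos are the replicates, and they differ in labelled time within a window. The alternatives were DESeq2 1.42.0, other scaling, filters and thinning, narrower windows, a fit of all 45 embryos and leaving out each embryo.

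The embryos, the 40 gene lists (24 of whose names matched no gene) and the tests were chosen with earlier results of these data known. Named genes are the 14 largest rises and falls averaging 50 CPM or more in the window where they were higher, the 3 largest called members of each list with at least 20 CPM, all stage markers, and the 5 largest slopes in each direction with at least 50 CPM. Members outside this rule, including those of groups of 5 or fewer, were named after their values were seen. Some members are not reported here.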

Additional observations from a re-analysis of the deposited data

Results flagged for a closer look

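A sample far from the others of its window was found in 4 measures of the whole library and in 24 of 86 sets of values of single genes. Several of these genes were chosen for large changes between or within windows, and the embryos of a window differ in labelled time. A chance rate of about 1 in 20 is therefore not a fair comparison. Embryo 135, at 380 min, differed from the other elongation embryos in the share of reads in genes (34.7%), in genes detected after thinning (2668), in the share of X-linked counts (19.3%) and in the effective number of genes (1048).

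The 300 min embryo accounted for 9 of the 14 flagged values in the elongation window. It had 1925 CPM of cyb-3, 622 CPM of cyb-1, 256 CPM of cht-1, 143 CPM of sex-1, 666 CPM of C01G6.3, 2615 CPM of ces-2, 489.5 CPM of sox-2 and 1.13 CPM of xol-1, each the highest of the 9 deeper embryos, and 181 CPM of emb-9, the lowest. The other embryos of the window that stood apart were those at 390 min for lpr-4 (1139 CPM), at 340 min for vit-2 (1084 CPM) and dsl-2 (4.75 CPM), at 310 min for end-1 (1.23 CPM) and at 360 min for vet-1 (1.03 CPM). The values of dsl-2, end-1, vet-1 and xol-1 rest on a few counts each, near the limit of counting.

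In the gastrulation window the 190 min embryo accounted for 6 of the 10 flagged values. It was the highest for egl-46 (2.66 CPM, only a few counts), hil-7 (31.0 CPM), col-121 (6.20 CPM), inx-13 (52.3 CPM), ces-2 (21.3 CPM) and sox-2 (907 CPM). The 110 min embryo was the highest for vit-2 (744 CPM), emb-9 (25.3 CPM), myo-3 (18.3 CPM) and T26E3.8 (187 CPM).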

How the results depend on the processing

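No gene called between the windows in the run had the opposite call under any alternative. The numbers called higher and lower were 1821 and 1482. DESeq2 called 3137 and 2570, a fit of all 45 embryos called 3045 higher, and no filter on low counts gave 4259 and 2815. Thinning all embryos to the 12338 counts of embryo 135 left 200 genes to test, of which 61 and 56 were called. Leaving out 1 embryo gave 1548 to 2030 higher and 1381 to 1640 lower. In embryos 51 to 70, the count was 448 higher, using the 8 and 4 embryos numbered 51 to 94 gave 735, and leaving out 1 embryo gave 271 to 786 higher and 157 to 347 lower. The slopes within elongation gave 405 to 954 rising and 185 to 519 falling genes, and those within gastrulation 661 to 980 and 823 to 1118. The difference in genes detected between elongation and gastrulation embryos was 77.4 (54.0 to 182 without 1 embryo) and became 182 without embryo 135, or 1031 with deeper thinning. That in the effective number of genes was 45.1 (26.7 to 125) and became 125 or 240.0, passing the exact test in these settings. With a pseudocount of 1 CPM the median position at 250 to 290 min moved to 74.2% for genes higher and 49.9% for genes lower. The cause of these shifts was not tested, except that other filters, thinning and leaving out an embryo change the number of genes tested. Without a gastrulation embryo the filter required counts in fewer embryos, and 7393 to 7486 genes were tested, against 7180. The part of the filter in the list counts that follow was not tested. Leaving out 1 embryo moved the members called higher to between 6 and 15 for cilia, 13 and 21 for intestine, 1 and 6 for yolk, 2 and 5 for mesoderm regulators and 3 and 7 for pharynx and gut regulators. The calls of vit-2, vit-4, vit-5, toe-1, rpt-6 and pyk-2 were lost under some alternatives, and cdc-25.1, elt-2, unc-119 and col-19 were called under some. Depth limits the value of embryo 135 and of genes under about 10 counts. No paired analysis was possible because the labels give the embryos of the windows no shared numbers.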
